A study of Drosophila melanogaster with 4 samples.

Results

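The 10 genes described here make the synaptonemal complex or carry out meiotic recombination in Drosophila melanogaster females. They are c(3)G, cona, corolla, c(2)M, ord, mei-W68, mei-P22, vilya, mei-9 and mei-218. They were chosen by name and not by a measured value, but with earlier results of these data known. Of the 17023 genes listed in the count tables, 8 were matched to these names through their FlyBase identifiers, and 6 of the 8 passed the filter on low counts, as did 7085 genes in all. The 6 are c(3)G, c(2)M, mei-W68, mei-P22, mei-9 and mei-218, whereas cona and ord had too few reads to be tested. No row was matched to corolla (FBgn0267967) or vilya (FBgn0283545), which are not analysed here beyond their sequence.

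The pulldown group holds 2 libraries of RNA recovered from ovaries with a mouse antibody against pseudouridine, a modified form of uridine. The input group holds 2 libraries of ovary RNA to which no antibody was added. The genotype of all 4 is given as WT, with no driver or age, and poly(A) RNA was selected in both groups. Libraries are numbered 1 and 3 in each group, and a number marks a pulldown and the input taken from the same homogenate. Pulldown values include any RNA held by antibody or beads for other reasons, as no mock IgG pulldown was analysed here. Nothing states whether the numbers stand for separate batches of flies, so p-values measure the spread between these libraries, which may be technical.

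During meiosis the synaptonemal complex joins paired homologous chromosomes along their length like a zipper. Its central region links lateral elements that form along the chromosome axes, and in fly females the complex assembles in germline cysts of the germarium before most programmed double-strand breaks appear. A conserved topoisomerase-like enzyme makes these breaks, and a few of them are repaired as crossovers, which hold homologs together until they separate. The ovary also holds later nurse cells, oocytes and follicle cells. In whole ovaries, fewer cells of a type and less RNA per cell cannot be told apart.

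The study behind these libraries concerns polyglutamine proteins, and its antibody targets modified uridine, so the glutamine codons of the member mRNAs and a uridine-containing motif are shown first. Glutamine is encoded by CAG and CAA. The longest uninterrupted stretch of these codons is given with the stretch in capitals and 3 codons on either side. It was read on the coding strand from the dm6 genome through the RefSeq annotation. The site of mei-9 is left out because an intron cuts it. Sites of ord and mei-W68 were not extracted, so their absence does not show that an intron cuts them.
c(3)G, chr3R:15792227-15792250, minus strand: cctagagttCAGCAAtcaaaaatt
cona, chr3R:18385925-18385945, plus strand: ggtagtaacCAAgattggaac
corolla, chrX:17631546-17631569, minus strand: caagagaatCAGCAGaacacaatc
c(2)M, chr2L:16304027-16304050, plus strand: gagtgcacaCAACAGgtggtggag
mei-P22, chr3L:7244574-7244597, plus strand: ctattgttgCAGCAAgggaaagtg
vilya, chrX:2727425-2727448, plus strand: gcaaagcggCAGCAAatcaccagc
mei-218, chrX:17140012-17140044, minus strand: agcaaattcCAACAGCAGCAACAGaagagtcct

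Only mei-218 among the 10 carried a stretch of 5 glutamine codons. It starts at codon 339 of 1186 and mixes CAA with CAG. The longest run of CAG codons anywhere in the mei-218 mRNA was 3. The other members had at most 2 glutamine codons in a row. The paper names c(3)G among transcripts with a significant match to what it calls a 5-CAG motif. By its methods, these transcripts were searched at the protein level, with a motif of 5 glutamines. Such a match is a resemblance and not an uninterrupted run, so the measures differ. Of 13968 genes with a RefSeq mRNA, 7.47% had a stretch of at least 5 glutamine codons and 4.03% a stretch of at least 5 CAG codons. Taken singly, glutamine codons were common in some members, with 114 in mei-218, 63 of 961 codons in mei-9 and 58 of 744 in c(3)G, and few in mei-W68, with 7 of 331.

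The motif GTTCNANNC, in which N is any base, is the consensus around the uridine modified by the pseudouridine synthases Pus4 of yeast and TRUB1 of human cells. It was searched on the RNA strand of each mRNA. Of the 10 members, 6 held it, with 3 matches in ord, 2 in mei-218 and 1 each in cona, corolla, c(2)M and mei-9. Of all RefSeq mRNAs, 33.6% held it. The matches in coding sequence that are not cut by an intron are given for cona, corolla and mei-218, with the motif in capitals. Those of ord were not extracted, whether or not an intron cuts them.
cona, chr3R:18386597-18386623, plus strand: gatatccgtGTTCTAGGCcagatcgaa
corolla, chrX:17631049-17631075, minus strand: ttggctggtGTTCCATCCgctagcacc
mei-218, chrX:17139410-17139436, minus strand: tgctaaggaGTTCCACCCtaccggaga

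A match is a description of the letters and does not show that the uridine is modified. Uridine made up 18.6% (vilya) to 28.8% (c(2)M) of the member mRNAs, and the median over tested genes was 23.0%.

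The libraries differed in ways that touch every value below. Totals were 984979 and 6338436 counts in pulldowns 1 and 3, and 4245717 and 12684875 counts in inputs 1 and 3. A level of 3 counts, used as the floor for a gene with no reads, corresponds to 3.05 and 0.473 CPM (counts scaled to the library total) in pulldowns 1 and 3, and to 0.707 and 0.237 CPM in inputs 1 and 3. Only 94 genes had 1 to 9 reads in pulldown 3, against 1079 in pulldown 1, and 1049 and 2533 in inputs 1 and 3. The 10 genes of late follicle cells that make the eggshell took 27.2% and 3.35% of the counts in pulldowns 1 and 3, and 9.82% and 2.12% in inputs 1 and 3. The 4 early germline markers with a row summed to 617 and 972 CPM in pulldowns 1 and 3, and to 2044 and 1158 CPM in inputs 1 and 3. Most of each sum was otu, with 590 and 732 CPM in pulldowns 1 and 3, and 1825 and 880 CPM in inputs 1 and 3. The others did not fall from input 1 to input 3, with 9.19 and 55.0 CPM for bam, 211 and 221 for Sxl and 0 and 1.66 for bgcn. Of these markers, bam was at 0 in pulldown 1 and bgcn in both pulldowns and input 1. The part of these differences in the results below was not tested. Markers of testis were at or near 0 in all 4 libraries. Intervals given below cover counting error only, because reads amplified by PCR are not independent molecules.

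Before pulldown and input were compared, the levels of the 8 genes in the inputs were ordered, in CPM per kilobase of exon so that genes of different length can be set side by side. The gene for the transverse filament, c(3)G, stood first with 13.1 and 46.5 CPM per kilobase in inputs 1 and 3. It was followed by c(2)M with 8.23 and 12.8, mei-9 with 6.01 and 13.7, and mei-P22 with 2.36 and 2.93 CPM per kilobase. The last 4 were mei-218 (1.12 and 0.600), cona (0 and 1.38), mei-W68 (0.307 and 1.03) and ord (0 and 0.101). The ranges of the inputs overlapped between c(2)M and mei-9, between mei-218 and cona and between cona and mei-W68, so the order within these neighbours did not exceed the spread. They did not overlap between c(3)G and c(2)M, mei-9 and mei-P22, mei-P22 and mei-218, or mei-W68 and ord, although the lower input of c(3)G lay within the range of mei-9. The last of these rests on 5 reads of ord.

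Most of these genes were lowly expressed in whole ovaries. The median tested gene had 23.3 CPM per kilobase over the inputs. Only c(3)G, with a mean of 29.8 ± 23.6 CPM per kilobase (SD, n = 2), lay above it, and 59.0% of tested genes were lower than c(3)G. For c(2)M and mei-9, 25.2% and 23.7% of tested genes were lower, and for the other 5 at most 8.12%. Exons of mei-218 share 79.3% of their 6310 bases with mei-217 on the same strand, and exons of mei-W68 share 35.0% of their 2300 bases with par-1, so their levels are uncertain. When all reads of a gene were divided by only the exon bases that no other gene on the strand shares, mei-218 came to 4.16 CPM per kilobase over the inputs. It then ranked above mei-P22, and mei-9 at 11.0 ranked above c(2)M. These values hold only if reads on shared bases were not counted, which is not known.

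The inputs themselves differed for some members. The level of c(3)G in input 3 was 3.56 times that in input 1 (95% exact counting interval 3.0 to 4.24), and that of mei-9 was 2.28 times as high (1.83 to 2.87). That of c(2)M was 1.55 times as high (1.21 to 2.0), whereas mei-218 was lower in input 3, at 0.536 times (0.332 to 0.875). Of tested genes, 33.5% were at least 2-fold and 15.5% at least 3.5-fold higher in input 3 than in input 1, and 7.90% at least 2-fold higher in input 1. This spread between inputs enters every comparison that follows.

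**Figure D1:**
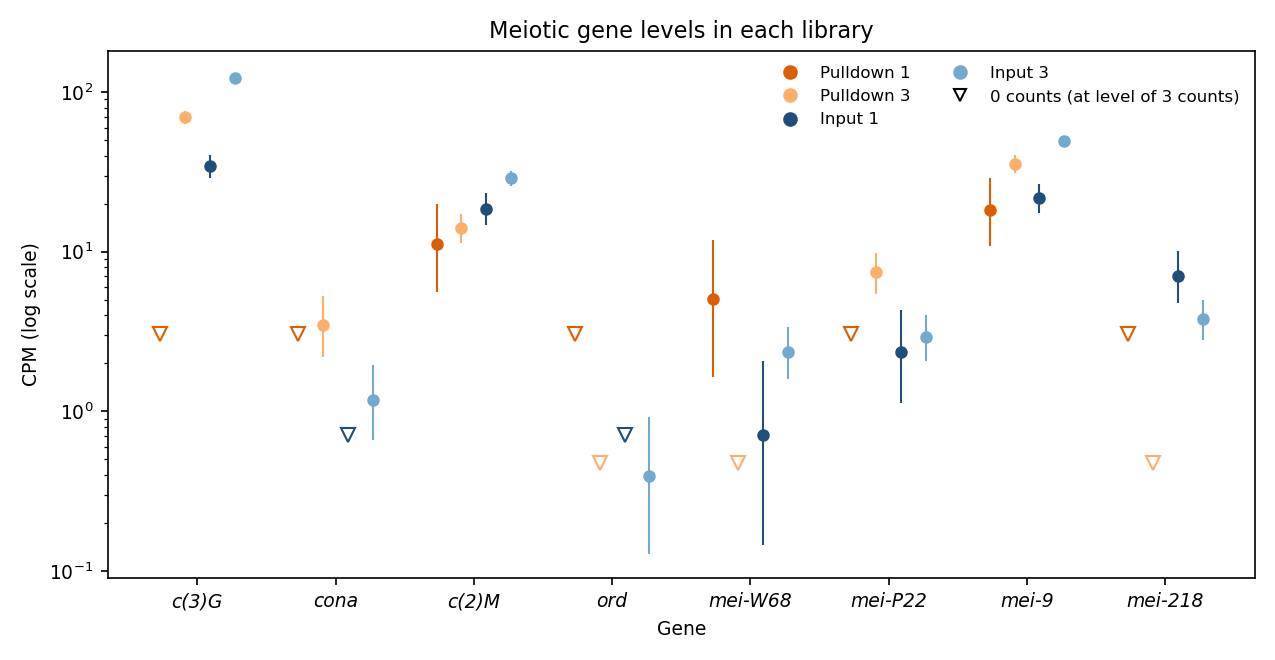
Level of the 8 measured genes in each library, in CPM on a log axis, with pulldowns left of inputs. Open triangles mark 0 counts and are drawn at the level of 3 counts. Pulldown 1 had no reads of 5 genes and pulldown 3 none of 3, while input 3 had reads of all 8.

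To ask whether the antibody enriched transcripts of this group, pulldown was compared with input by edgeR's quasi-likelihood test over all 7085 tested genes. None of the 6 tested members met the call rule, which asked for a 2-fold or larger difference at an adjusted p-value under 0.05, and neither did any other gene (0% called). The adjusted p-value was 0.9999 for each of the 6. Unadjusted p-values were below 0.05 for 146 genes (2.06%), of which 137 (1.93%) were lower and 9 (0.127%) higher in pulldown, and among members for mei-218 alone, which was lower. With the replicate number as a block, 0 genes were called, 293 (4.14%) had an unadjusted p-value below 0.05, and none of them was a member. DESeq2 called 2 genes, neither of them a member. In simulated libraries with the same dispersion, edgeR recovered 0 of 200 genes changed 16-fold and DESeq2 recovered 139 with 45 false calls, so a lack of calls does not show that a level was the same in both groups.

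In CPM, 4 of the 6 tested members were lower in pulldown than in the same-numbered input in both pairs, namely c(3)G, c(2)M, mei-9 and mei-218, as were 40.5% of tested genes. On TMM-scaled libraries 3 of the 6 were, without mei-9, as were 33.1% of tested genes. None was higher in both pairs, against 14.1% of tested genes. Both pulldowns lay below both inputs for c(2)M and mei-218, as for 20.0% of tested genes, and both lay above both inputs for no tested member, against 6.21% of tested genes. The median fitted log2 fold change of the 6 was -0.42, with 4 below 0, and that of all tested genes was -0.07, with 53.8% below 0.

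Zeros were frequent. Pulldown 1 had no reads of c(3)G, cona, ord, mei-P22 and mei-218, and pulldown 3 had none of ord, mei-W68 and mei-218. Among the 6 tested members this makes 3 genes at 0 in pulldown 1 and 2 at 0 in pulldown 3, where 17.0% and 3.32% of tested genes were at 0. Over all 17023 listed genes, to which cona and ord also belong, 64.4% and 58.0% were at 0 in pulldowns 1 and 3. Input 1 had none of cona and ord, and input 3 had reads of all 8. Summed over the 8 genes, the level was 34.5 and 130.3 CPM in pulldowns 1 and 3, against 84.8 and 211.1 CPM in inputs 1 and 3.

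Of the central region genes, c(3)G was the most strongly expressed member in the inputs and cona was close to the floor. The protein of c(3)G (FBgn0000246, 3R:15789473-15792579, minus strand) forms the transverse filaments that span the gap between homologs. It had 0 and 442 counts in pulldowns 1 and 3, or 0 and 69.7 CPM, against 146 and 1551 counts, or 34.4 and 122.3 CPM, in inputs 1 and 3. The groups overlapped, because pulldown 3 lay between the inputs, and the mean was 34.9 ± 49.3 CPM in pulldown and 78.3 ± 62.1 CPM in input (SD, n = 2 each). Within pair 3, pulldown was 0.570 times input (95% exact counting interval 0.512 to 0.634). Within pair 1, 33.9 reads would have been counted in the pulldown at the level of the input, and the observed 0 puts it at least 11.3-fold lower.

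Genes with 100 to 200 counts in input 1 were at 0 in pulldown 1 in 10.3% of cases, so that zero was not particular to c(3)G. The fitted log2 fold change of c(3)G was -1.15 ± 1.46 (SE), with an edgeR adjusted p-value of 0.9999, and -2.30 ± 1.15 with the replicate block. Without pulldown 3 the edgeR adjusted p-value of c(3)G became 0.00509, in a fit that called 479 of 7341 genes (6.52%), most of them lower in pulldown (5.87%). Its log2 fold change was -0.21 without pulldown 1 and -0.31 without input 3. The call therefore depends on which pulldown is used.

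A further component of the central region is encoded by cona (FBgn0038612, 3R:18385828-18386887, plus strand), whose protein is needed for the filaments to polymerize between the axes. It had 0 and 22 counts in pulldowns 1 and 3, or 0 and 3.47 CPM, against 0 and 15 counts, or 0 and 1.18 CPM, in inputs 1 and 3. Neither library of pair 1 had a read, and in pair 3 the pulldown was 2.94 times the input (1.46 to 6.08). That ratio was usual for pulldown 3. Of 1062 genes with 10 to 60 counts in input 3, 67.7% had no read in pulldown 3, 2.64% had 1 to 9 and 29.7% had 10 or more. Of the 343 with any read, 85.7% were higher in CPM than in the input and 52.2% at least 2.5-fold higher, with a median ratio of 2.62.

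Lateral element and axis genes were represented mainly by c(2)M (FBgn0028525, 2L:16303264-16305940, plus strand), whose kleisin-like protein joins the axis to the central region. It had 11 and 89 counts in pulldowns 1 and 3, or 11.2 and 14 CPM, against 79 and 366 counts, or 18.6 and 28.9 CPM, in inputs 1 and 3. The mean was 12.6 ± 2.03 CPM in pulldown and 23.7 ± 7.25 CPM in input (SD, n = 2 each). The only other member with reads in all 4 libraries, mei-9, had groups that overlapped. For c(2)M both pulldowns lay below both inputs, as for 20.0% of tested genes. The ratio was 0.600 (0.288 to 1.13) in pair 1, an interval that includes 1, and 0.487 (0.382 to 0.615) in pair 3. The fitted log2 fold change was -0.66 ± 1.22 (SE), with an edgeR adjusted p-value of 0.9999.

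The cohesion protein gene ord (FBgn0003009, 2R:23271257-23275536, minus strand) was at the limit of detection. It had 0 counts in both pulldowns, and 0 and 5 counts in inputs 1 and 3, or 0 and 0.394 CPM. At the depth of pulldown 3 the input level corresponds to fewer than 3 reads, so a difference was not detectable.

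Double-strand break genes had few reads, and only mei-W68 had a ratio or bound in both pairs, in opposite directions. The Spo11-type enzyme that makes the breaks is encoded by mei-W68 (FBgn0002716, 2R:19456170-19459523, plus strand). It had 5 and 0 counts in pulldowns 1 and 3, or 5.08 and 0 CPM, against 3 and 30 counts, or 0.707 and 2.37 CPM, in inputs 1 and 3. The pulldown was 7.18 times the input in pair 1 (1.4 to 46.3) and at least 5.0-fold lower than the input in pair 3. The bound takes 0 reads as at most 3 counts and is uncertain, because pulldown 3 had few genes with 1 to 9 reads. There, 67.7% of genes with 10 to 60 counts in input 3 were at 0 and 2.64% had 1 to 9 reads. Of 739 genes with 1 to 5 counts in input 1, 13.0% had any read in pulldown 1, and 96.9% of those 96 were higher there. The depths all but fixed that share, because 1 read in pulldown 1 came to 1.02 CPM and 4 counts in input 1 to 0.942 CPM.

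Its partner in break formation, mei-P22 (FBgn0016036, 3L:7244388-7245383, plus strand), had 0 and 47 counts in pulldowns 1 and 3, or 0 and 7.42 CPM, against 10 and 37 counts, or 2.36 and 2.92 CPM, in inputs 1 and 3. The ratio in pair 3 was 2.54 (1.62 to 4.02), close to the median of genes with similar input counts given for cona. In pair 1 the input lay below the floor of the pulldown, so no fold can be given. The inputs differed little for mei-P22, by 1.24 times (0.604 to 2.79). Fitted log2 fold changes were 1.22 ± 2.42 (SE) for mei-W68 and 0.50 ± 1.93 for mei-P22, and both changed sign with the replicate block, to -0.76 and -0.36.

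Crossover genes behaved differently from each other. The endonuclease subunit that cuts crossover intermediates is encoded by mei-9 (FBgn0002707, X:4314230-4318801, minus strand), the fly counterpart of XPF. It had 18 and 226 counts in pulldowns 1 and 3, or 18.3 and 35.7 CPM, against 92 and 626 counts, or 21.7 and 49.4 CPM, in inputs 1 and 3. The groups overlapped, and the mean was 27.0 ± 12.3 CPM in pulldown and 35.5 ± 19.6 CPM in input (SD, n = 2 each). The ratio was 0.843 (0.479 to 1.41) in pair 1 and 0.723 (0.618 to 0.843) in pair 3. The fitted log2 fold change was the smallest of the 6 tested members in size, at -0.17 ± 0.99 (SE). With the eggshell genes left out of the library totals, the ratio in pair 1 was 1.04.

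The MCM-like protein of mei-218 (FBgn0002709, X:17135985-17142990, minus strand) promotes crossovers by opposing the Blm helicase. It had 0 counts in both pulldowns, against 30 and 48 counts, or 7.07 and 3.78 CPM, in inputs 1 and 3. Every pulldown was therefore below every input, at least 2.32-fold lower in pair 1 and at least 7.99-fold lower in pair 3. The bound in pair 3 is uncertain, as for mei-W68. The unadjusted p-value in edgeR was 0.0339 and the adjusted one 0.9999, and with the replicate block the unadjusted p-value was 0.233. Of all tested genes, 1.54% were at 0 in both pulldowns. A zero was common at such depths, since 61.3% of genes with 10 to 30 counts in input 1 were at 0 in pulldown 1, and 67.7% of genes with 10 to 60 counts in input 3 were at 0 in pulldown 3. The mRNA with the longest glutamine stretch of the group was thus read in neither pulldown. Neither was that of ord, whose longest stretch was 2 codons, and a link to glutamine codons was not tested.

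**Figure D2:**
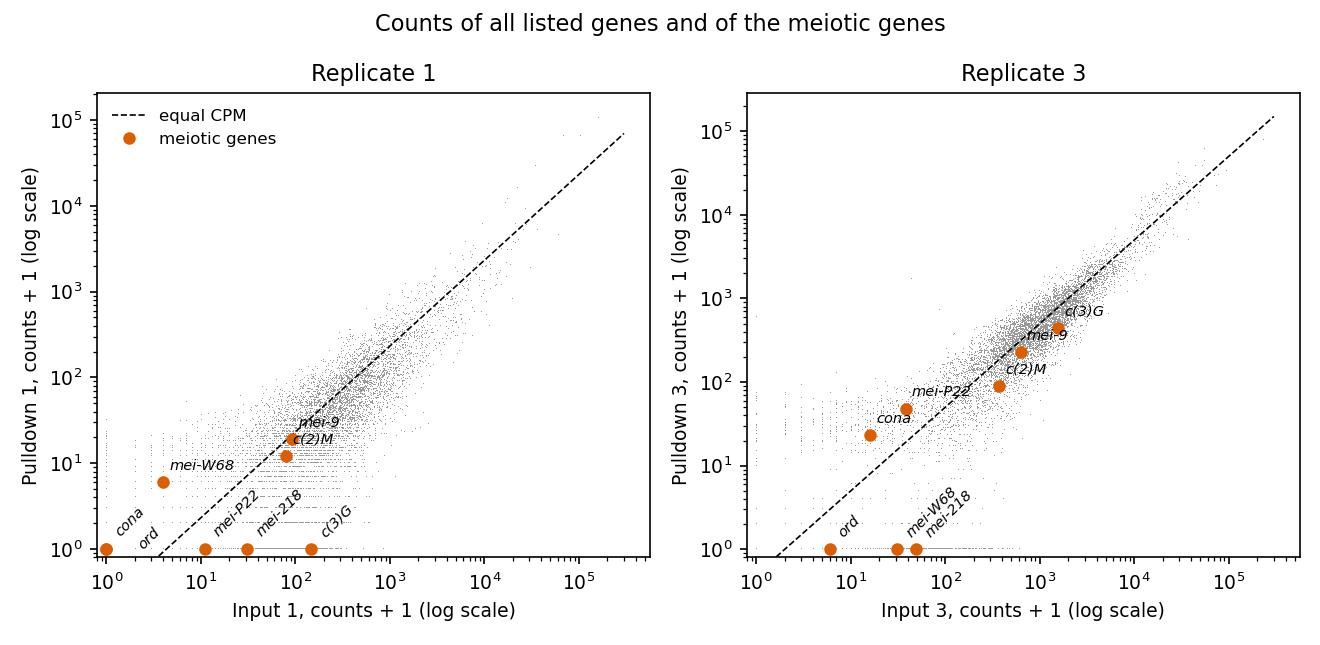
Counts of the members in pulldown against counts in the same-numbered input, each plus 1, on log axes, with pair 1 and pair 3 marked apart. The dashed lines mark equal CPM. In pair 3 cona (22 against 15 counts) and mei-P22 (47 against 37 counts) lie above the line, and c(3)G, c(2)M and mei-9 lie below it.

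**Figure D3:**
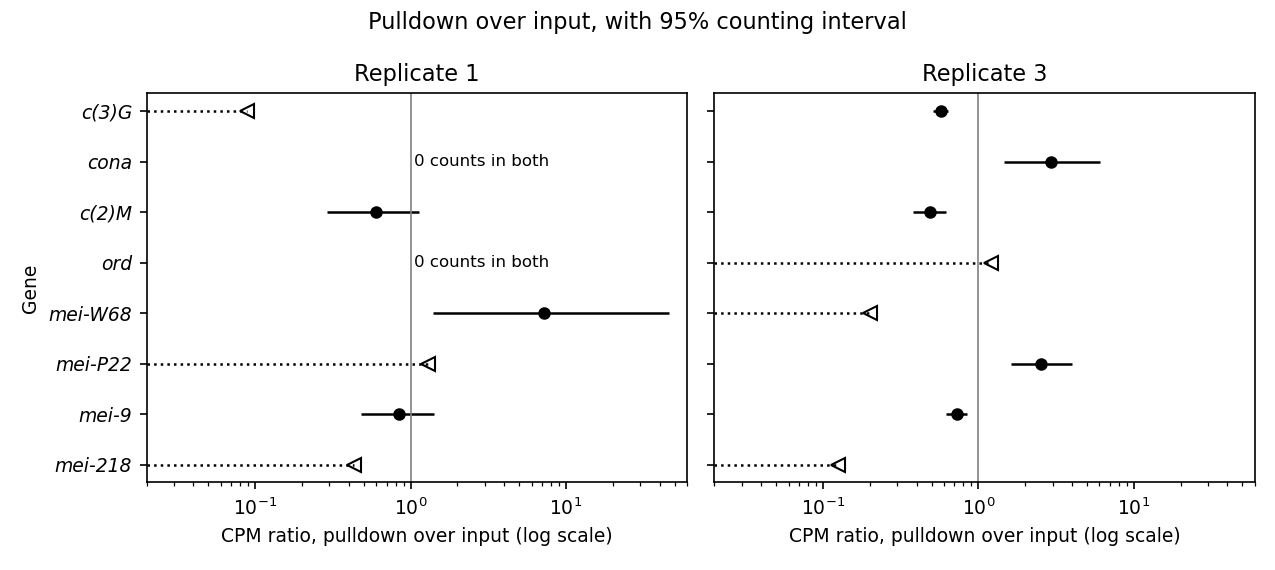
Ratio of pulldown to input CPM within each pair, on a log axis, for members where it can be given. Bars are 95% exact counting intervals, and open triangles are upper limits where the pulldown had 0 counts. Ratios in pair 3 were 0.570 for c(3)G, 0.487 for c(2)M and 0.723 for mei-9, and 2.54 and 2.94 for mei-P22 and cona.

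For the wider pathway, 39 other genes of female meiosis were taken from 6 lists, of which 37 had a row and 33 were tested. None was called in edgeR in either direction (0% of all tested genes called). Fitted log2 fold changes were below 0 for 24 and above 0 for 9, with a median of -0.30, against -0.07 for all tested genes. In CPM, 19 of the 33 were lower in pulldown in both pairs (2 of them with an input below the floor in a pair) and 4 were higher in both, where 40.5% and 14.1% of tested genes were. In pulldown 1, 12 of the 37 were at 0, and in pulldown 3, 5 of the 37, untested genes included. Over all listed genes 64.4% and 58.0% were at 0 in pulldowns 1 and 3, and over tested genes 17.0% and 3.32%. For each list, the 2 genes with the highest level per kilobase in the inputs are given, by log2 fold change with SE, and each had an edgeR adjusted p-value of 0.9999.

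Among cohesin and axis genes, 6 were tested and 4 were lower in both pairs. The kleisin gene vtd had 8 and 1122 counts in pulldowns 1 and 3, against 536 and 2458 in inputs 1 and 3 (-0.83 ± 1.00), and the cohesin loader Nipped-B had 124 and 2003 against 1558 and 5047 (-0.68 ± 0.61). Without pulldown 3, the log2 fold change was -3.67 for vtd. Among the segregation genes it was -10.94 for mei-S332 and -10.87 for mei-38. Both of these were at 0 counts in pulldown 1, as were 17.0% of tested genes, so their fold changes depend on the prior count. These 3 are given because they were called in that fit, whose share of called genes is given with c(3)G.

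Among the 5 genes of break formation and of the sites where breaks are resolved, 3 were lower in both pairs. The RING-finger gene narya had 23 and 94 counts in pulldowns 1 and 3, against 157 and 235 in inputs 1 and 3 (-0.28 ± 1.17), and trem, a zinc-finger gene needed for breaks, had 1 and 457 against 88 and 351 (0.52 ± 1.43). The partner of narya, nenya, was picked after its values were seen. It had 0 counts in both pulldowns against 13 and 60 in inputs 1 and 3, an unadjusted edgeR p-value of 0.0414, and was at least 1.01-fold lower in pair 1 and at least 9.99-fold lower in pair 3. Its input counts fall in the same ranges as those of mei-218, where most genes were at 0 in the pulldown. The bound of nenya in pair 3 is uncertain for the same reason as that of mei-218.

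In strand exchange and repair, 4 of 5 tested genes were lower in both pairs and 1 was higher in both. For 2 of the 4, spn-B and spn-D, named after their values were seen, the lower value in pair 1 was 0 counts where the input lay below the floor of the pulldown, so pair 1 gives no direction for them, and 38.8% of tested genes were lower in both pairs without such cases. The recombinase gene spn-A had 19 and 157 counts in pulldowns 1 and 3, against 65 and 238 in inputs 1 and 3 (0.60 ± 1.16), and Brca2, whose protein loads the recombinase, had 15 and 287 against 228 and 786 (-0.84 ± 0.86). In crossover formation, 3 of 5 tested genes were lower in both pairs. The nuclease gene mus81 had 17 and 280 counts against 246 and 672 (-0.76 ± 0.86), and the replication helicase gene Mcm5 had 83 and 1055 against 376 and 2248 (0.12 ± 0.61). A pair of genes that act with members of the group, mei-217 with mei-218 and mus312 with mei-9, were at 0 in all 4 libraries. Their exon bases are shared in full (100%) with another gene on the same strand, so these zeros are uncertain.

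Checkpoint and maintenance genes were split, with 2 of 4 below 0. The checkpoint kinase gene lok had 60 and 2481 counts in pulldowns 1 and 3, against 961 and 5388 in inputs 1 and 3 (-0.49 ± 0.76), and SkpA, whose ubiquitin ligase subunit maintains the complex, had 569 and 2107 against 2137 and 5504 (0.30 ± 0.75). Of 8 segregation genes, 4 were lower in both pairs and 2 higher in both. The spindle motor gene ncd had 46 and 478 counts against 453 and 1126 (-0.52 ± 0.67), and mtrm, a Polo inhibitor, had 155 and 2166 against 1530 and 4158 (-0.35 ± 0.61).

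**Figure D4:**
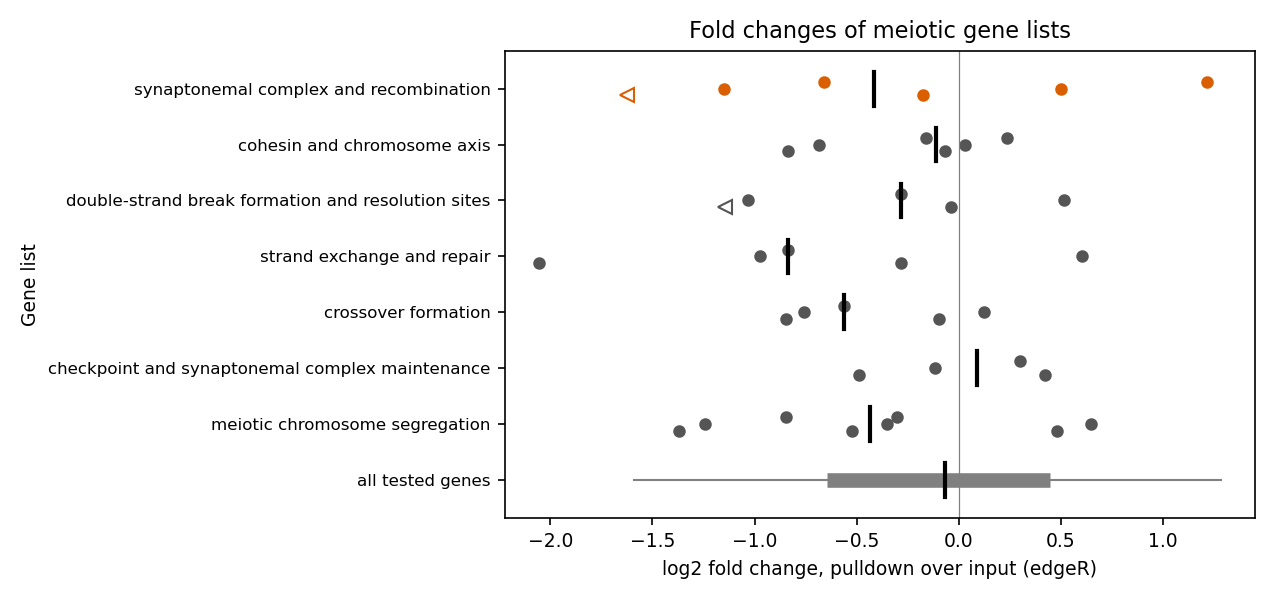
Fitted log2 fold change, pulldown over input, of the tested members and of the tested genes in the 6 lists of other meiotic genes. Points are genes, open triangles are genes at 0 in both pulldowns drawn at their bound, black bars are medians, and the grey bar and line span the 25th to 75th and the 5th to 95th percentiles of all tested genes. The medians were -0.42 for the members and -0.30 over the other lists together, within the grey bar from -0.64 to 0.45.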

How the data were processed

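Per the labels, poly(A) RNA of ovaries was sequenced from directional libraries of pulldown and input. The authors' notes name HISAT2 2.1.0, featureCounts 1.4.6 and dm6, and also DESeq2 1.24.0. The deposited values are raw counts per gene, not normalised. How the counting treated strand and reads on overlapping genes is not given in the sources used here, so overlapping genes are uncertain. Of 17023 identifiers, 16647 (97.8%) matched the Ensembl release 115 annotation, which gave symbols, positions (1-based, dm6) and exon lengths.

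For the comparison of pulldown with input, edgeR 4.0.16 was run under R 4.3.3 (TMM, filterByExpr, group as the only term, quasi-likelihood test, two-sided, Benjamini-Hochberg over all 7085 tested genes). Log2 ratios within a pair used TMM-scaled libraries and a prior count of 2. A ratio interval is the 95% exact binomial one, conditional on the reads of both libraries, and a gene at 0 counts was set to a floor of 3 counts in that library. Same-numbered libraries come from the same homogenate by the study's methods and the numbers in the titles, and their deviations from the group means correlated at r = 0.41 over tested genes.

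DESeq2 1.42.0, other normalisations and filters, the replicate block and leaving out libraries were alternatives. Unshared exon bases and totals without eggshell genes were added after seeing the data. On simulated counts at a dispersion of 0.05, edgeR recovered 200 of 200 genes changed 16-fold with 5 false calls among 7260 genes, and at 0.539, the estimate from these libraries, 0 among 7204. The members, the lists and the rule for naming genes (all members, and of each list the 2 genes with the highest CPM per kilobase in the inputs) were chosen with earlier results of these data known. Figures were drawn with matplotlib 3.10.9.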

Additional observations from a re-analysis of the deposited data

How the results depend on the processing

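No member and no other listed meiotic gene was called under upper-quartile or total-count normalisation, DESeq2, no filter, a minimum of 10 counts in every library, or the replicate block. Over all genes, 0 were called in edgeR, 2 with DESeq2, 2 with no filter on low counts (10544 tested), and 0 with the replicate block, where unadjusted p-values below 0.05 numbered 293, against 146 without it. Leaving out single libraries gave 0 to 479 called genes, 0 to 1 members and 0 to 3 other meiotic genes. The upper ends were reached without pulldown 3, and 26 genes were called without pulldown 1. The lone pulldown was then assumed to vary like the inputs. The cause was not tested.

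The direction changed for 3 of the 6 tested members. The log2 fold change of mei-W68 was -0.76 with the replicate block, -6.66 without pulldown 1 and -2.94 in pair 3 alone, against 2.84 in pair 1 alone. That of mei-P22 was -0.36 with the replicate block, -7.06 without pulldown 3 and -3.29 in pair 1 alone, against 1.35 without pulldown 1. That of mei-9 was 0.26 without input 3 and 0.16 in pair 1 alone, against -0.54 without input 1, and its log2 ratio in pair 1 was -0.24 on total counts. Those of c(3)G, c(2)M and mei-218 stayed below 0 in every fit that gave them, but that of c(3)G was -0.21 without pulldown 1, -0.31 without input 3 and -11.85 without pulldown 3, against -1.15 with all libraries. Large values with 0 counts on a side depend on the prior count and are no bounds. In the order of input levels, 2 of 8 genes kept their rank in CPM without length correction and 2 with unshared exon bases, which was added after seeing the data. All members but c(2)M and mei-9 had 0 counts in a pulldown. For cona and mei-P22 in pulldown 1 and ord in both, the input level came to fewer than 3 reads at that depth, so no bound can be given. For c(3)G in pulldown 1, mei-W68 in pulldown 3 and mei-218 in both, it came to more than 3 reads. The cause of those zeros was not tested.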
